A study of Mus musculus with 12 samples.

Results

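The genes described here are 8 genes that astrocytes are known to switch on after injury: Gfap, Vim, Lcn2, Cd44, Osmr, Steap4, Cp and Timp1. They were chosen by symbol and make up 8 of the 23253 genes in the deposited count table. All 8 were among the 17909 genes with enough counts to be tested. RNA was sequenced in 12 libraries labelled as cortical neurons sorted by flow cytometry from C57BL/6 mice, 3 in each of 4 groups. The first group was labelled as control animals of adult age. Stroke animals were adults with a focal cortical lesion of 2 mm, made by shining cold light on the exposed skull for 15 min after the dye rose bengal. A further group of adult stroke animals carried a label of GDF10 siRNA, and the last group was labelled P4. The labels give no time after stroke and do not say what P4 stands for, and they repeat the note of adult C57BL/6 mice for it. They also do not say whether the libraries of a group came from separate animals, so the p-values measure the spread between these libraries, which may be technical. Adult control and siRNA-labelled libraries carry the numbers 1 to 3, and stroke and P4 libraries the numbers 4 to 6. Anything that follows these numbers cannot be told apart from the group when stroke or P4 is set against adult control, or the siRNA-labelled group against stroke.

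Astrocytes are the star-shaped glia that clear glutamate, buffer potassium and line the vessels of the cortex. After ischemia they become reactive: they enlarge, fill with the intermediate filament proteins GFAP and vimentin, and build a border around the lesion. Cytokines that signal through the receptor subunit gp130, among them oncostatin M, act on STAT3 in this response. Other products of reactive astrocytes act outside the cell, such as the metalloproteinase inhibitor TIMP1 and the siderophore-binding protein lipocalin 2, or handle iron and copper, such as ceruloplasmin and STEAP4. Most of these genes are not confined to astrocytes. Vim and Cd44 are also expressed by endothelial cells, fibroblasts and immune cells, and Lcn2 by neutrophils.

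Total counts ran from 10517638 in adult control 3 to 48633350 in P4 4. The 8 genes took 0.00658 to 0.0125% of all counts in adult control, 0.0152 to 0.0198% in stroke, 0.0113 to 0.0321% in the siRNA-labelled libraries and 0.00267 to 0.00489% in P4, so they are a small part of each library. The label of sorted neurons was checked against markers. Oligodendrocyte markers, 12 genes, made up on average 5.87% of an adult control library, 5.98% of a stroke library and 9.04% of a siRNA-labelled library, and the 12 pan-neuronal markers made up 0.464, 0.187 and 0.237%. In P4 the neuronal markers took 0.788% and the oligodendrocyte markers 0.0206%. Rn45s, the ribosomal RNA precursor, took over 1% of counts in all 3 stroke libraries, in adult control 2 and in siRNA-labelled 3, and less in the other 7 libraries. The gene named in the label, Gdf10, had 15, 21 and 0 counts in the control libraries 1, 2 and 3. Stroke 4, 5 and 6 held 0, 5 and 0 counts of it and siRNA-labelled 1, 2 and 3 held 8, 7 and 1, so it was not lower in the group that carries the siRNA label, which is called siRNA-labelled here. The titles of these libraries and the deposited columns name GDF10 without siRNA, so the labels leave unsettled whether GDF10 was given or targeted. The column taken as P4 4 reads P3 in the deposited table and was matched by its number.

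**Figure D1:**
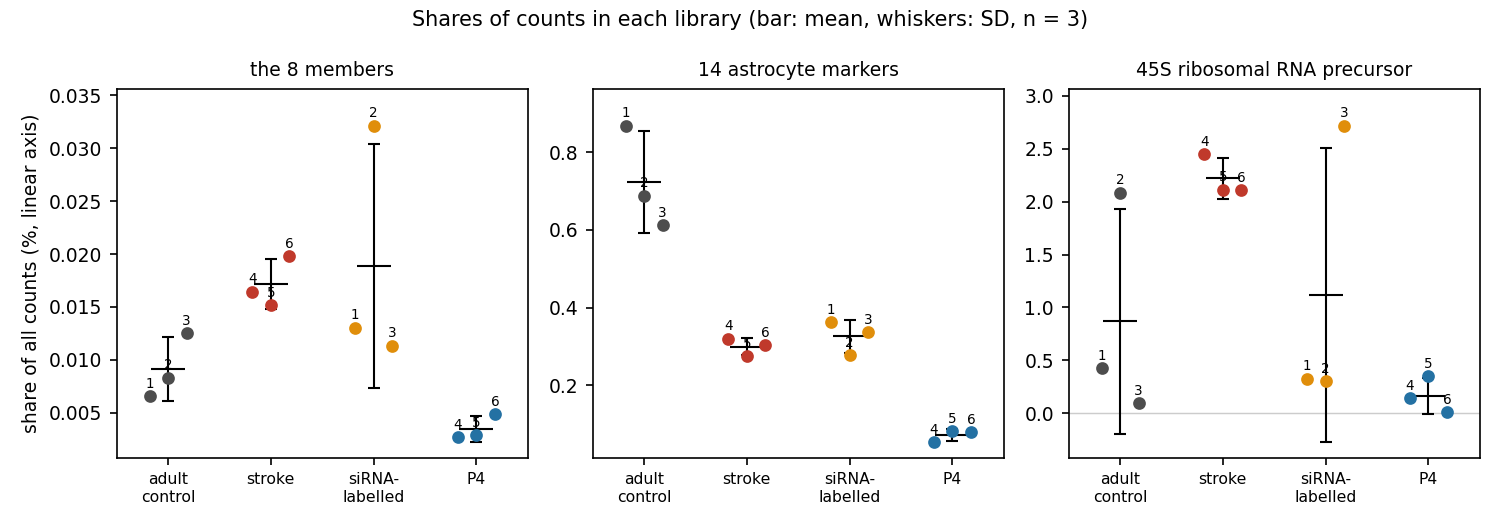
Share of all counts in each library, in percent on linear axes, taken by the 8 reactive astrocyte genes (left), by 14 astrocyte markers (middle) and by the Rn45s entry (right); points are libraries with their number, bars are means and whiskers are SD with n = 3. The 8 genes have their highest share, 0.0321%, in siRNA-labelled 2, the astrocyte markers have their highest shares in adult control, and Rn45s divides adult control and the siRNA-labelled group.

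The sorted material held RNA of astrocyte markers, and 6 of these 14 markers fell in stroke. The 14 astrocyte markers, which share no gene with the 8 described here, took 0.723 ± 0.131% of adult control counts, 0.300 ± 0.0229% of stroke counts, 0.326 ± 0.0435% of siRNA-labelled counts and 0.0722 ± 0.0153% of P4 counts (SD, n = 3 each), and none of the 14 was at 0 in any library. In stroke against adult control, 6 of the 14 passed the edgeR test as lower and 0 as higher (7 and 1 in DESeq2). Over all 17909 genes tested, 39 passed in edgeR as lower and 87 as higher, together 0.704%. DESeq2 called many more genes than edgeR in this comparison, most of them lower. The median log2 fold change of the list was -2.04 beside -0.08 over all genes tested. The 6 markers called lower were Slc1a2 and Slc1a3, the glutamate transporters, Gja1 and Gjb6, which form gap junctions, the bicarbonate transporter Slc4a4 and the neurotensin receptor Ntsr2. Slc1a2 alone went from 4129 ± 876 CPM to 563 ± 153 CPM (counts after division by the TMM-scaled library total, SD, n = 3 each). Slc1a2 and Glul had the highest levels of the 14 in adult control. Glul was at 1670 ± 260 CPM there and 1673 ± 244 CPM in stroke (SD, n = 3 each). Which cells held the RNA of the 14 markers was not tested. Of the 14, 4 had a positive log2 fold change. S100b, a calcium-binding protein gene, had 81.0 ± 44.9 CPM in controls against 320 ± 59.0 CPM after stroke (SD, n = 3 each) without overlap, which did not pass (1.98, adjusted p = 0.0887, edgeR), and the water channel gene Aqp4 was at 0.41. In bulk RNA, fewer astrocytes and less RNA per astrocyte cannot be told apart. The 6 markers that fell did so in the same stroke libraries in which Gfap, Vim and Cd44 were higher, and their part in the values below was not tested. Of 9 oligodendrocyte precursor markers, 6 lay wholly above adult control in stroke and 0 below, where 20% of all genes did not overlap. In edgeR 0 of the 9 passed, and in DESeq2 2 as higher. Their median log2 fold change was 1.11 and their share 0.465 ± 0.103% against 0.246 ± 0.150% in controls (SD, n = 3 each). The 9 endothelial and 9 fibroblast genes had medians of -0.58 and 0.12 and 0 calls in edgeR. The part of these cells was not tested either.

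Vim, Gfap and Cd44 were higher in every stroke library than in every adult control library, and Vim passed the test. Of the 8 genes, 1 passed in stroke against adult control at an adjusted p under 0.05 in the quasi-likelihood test of edgeR, against a background of 0.704% of all genes tested. With 3 genes wholly above and 2 wholly below, 5 of the 8 had libraries that did not overlap between the groups, against a background of 20%. The median log2 fold change of the 8 was -0.02 beside -0.08 over all genes, with 4 positive and 4 negative estimates. The signs of Osmr and Lcn2 changed when 1 library was left out. The genes did not move as a block: the filament genes and Cd44 were on one side, and Cp and Steap4 on the other. At an unadjusted p under 0.05, 5 of the 8 and 2852 of all 17909 genes passed.

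Gfap encodes the main intermediate filament of mature astrocytes (chromosome 11, 102887336 to 102900912, minus strand, mm10). Its level was 2.02, 2.36 and 8.33 CPM in adult control 1, 2 and 3, and 30.2, 14.03 and 37.6 CPM in stroke 4, 5 and 6. It was 14.3, 17.7 and 10.8 CPM in siRNA-labelled 1, 2 and 3, and 0.861, 1.70 and 1.27 CPM in P4 4, 5 and 6. All stroke and siRNA-labelled libraries lay above all adult control libraries, and all P4 libraries below them; stroke 5 lay within the range of the siRNA-labelled group. The log2 fold change in stroke against adult control was 2.71 (SE 0.68), which did not pass the edgeR test after Benjamini-Hochberg adjustment (adjusted p = 0.0919). Without adult control 3, the highest control library, the difference was 3.64 with an adjusted p of 0.0121 by the same test, and over 11 alternative settings the adjusted p ran from 0.00484 to 0.341. In the authors' deposited table the value is 2.73 with a false discovery rate of 0.0118.

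Vim encodes vimentin, the intermediate filament of immature and reactive astrocytes and of many non-neural cells (chromosome 2, 13573927 to 13582826, plus strand, mm10). Its level was 3.65, 16.6 and 4.68 CPM in adult control, 73.1, 59.0 and 75.4 CPM in stroke, 49.3, 171 and 53.9 CPM in the siRNA-labelled libraries and 12.17, 10.9 and 26.9 CPM in P4. All stroke and siRNA-labelled libraries lay above all adult control libraries. Within the groups, adult control 2 stood above the other controls and siRNA-labelled 2 above every other library, and P4 overlapped adult control. Vim rose in stroke by 3.04 on the log2 scale (SE 0.66, adjusted p = 0.0497, edgeR). The call sits at the threshold. It was lost with another scaling of the libraries (RLE, adjusted p = 0.0616), with only both groups in the fit (adjusted p = 0.124) and without adult control 1 (0.156), adult control 3 (0.120), stroke 4 (0.155), stroke 5 (0.117) or stroke 6 (0.175). The adjusted p ran from 0.00031 to 0.175 over 11 alternatives, and the log2 fold change stayed between 2.69 and 4.07. The authors' deposited table gives 3.05 with a false discovery rate of 0.000942.

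Cd44 encodes a membrane receptor for hyaluronan and osteopontin found on reactive astrocytes and on many immune and mesenchymal cells (chromosome 2, 102811141 to 102901665, minus strand, mm10). Its level was 3.17, 0.646 and 10.4 CPM in adult control, 46.7, 48.3 and 45.9 CPM in stroke, 27.3, 62.8 and 12.6 CPM in the siRNA-labelled libraries and 6.94, 9.02 and 13.9 CPM in P4. The stroke libraries were close together and far above adult control, the siRNA-labelled libraries lay above adult control but spread on both sides of stroke, and P4 overlapped adult control. Its log2 fold change in stroke against adult control, 3.35 (SE 0.83), was the largest upward difference of the 8 and did not pass the edgeR test (adjusted p = 0.0866). It passed in 4 of 11 alternatives, with adjusted p from 0.0031 to 0.233. Without adult control 3 it was 4.64 (adjusted p = 0.0140), and with the Rn45s level as a term in the edgeR fit it was 5.07 (adjusted p = 0.0031). The authors' deposited table gives 3.36 with a false discovery rate of 0.00393.

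**Figure D2:**
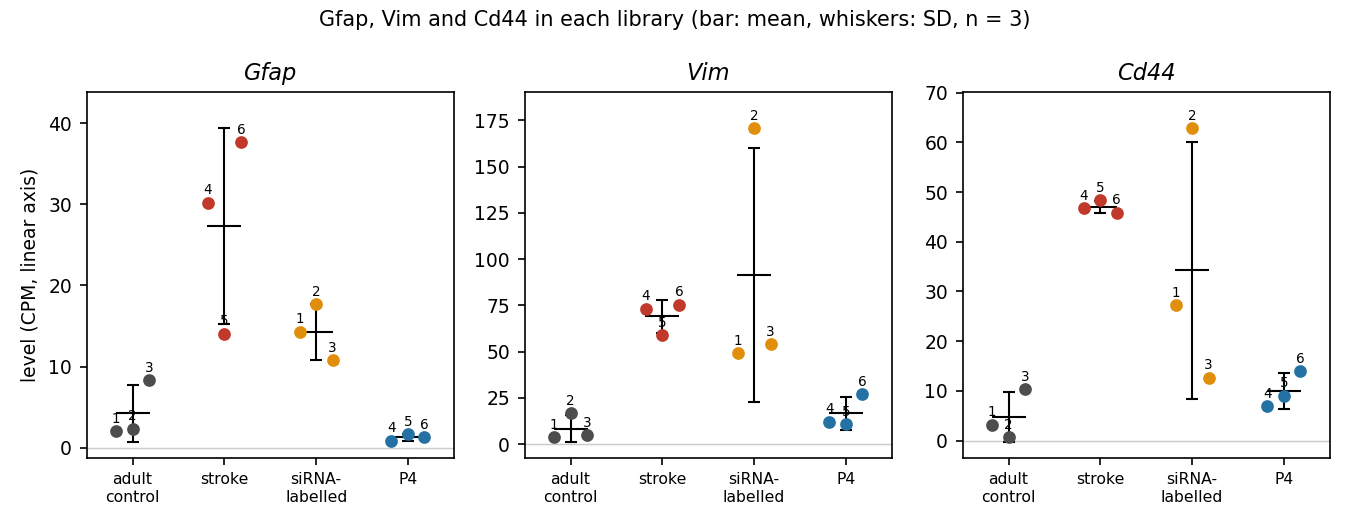
Level of Gfap, Vim and Cd44 in CPM on linear axes, in each library of adult control, stroke, the siRNA-labelled group and P4; points are libraries with their number, bars are means and whiskers are SD with n = 3. All stroke libraries, at 14.03 CPM or more for Gfap, 59.0 for Vim and 45.9 for Cd44, lie above all adult control libraries, which reach 8.33, 16.6 and 10.4 CPM.

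The Rn45s share moved with the stroke group, so the levels were also read among libraries of like Rn45s share. Adult control 2 is the 1 control library with over 1% Rn45s, as in stroke. Against its 2.36 CPM, Gfap was at 14.03 to 37.6 CPM in stroke. Against its 16.6 CPM, Vim was at 59.0 to 75.4 CPM, and against its 0.646 CPM, Cd44 was at 45.9 to 48.3 CPM. The 3 genes were higher in stroke than in this 1 control library, and with 1 control library no test was run. Adult control 2 held the lowest Cd44 and the highest Vim of the control libraries.

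Windows of 250 bases before a transcript start that RefSeq gives for Gfap and for Cd44 are shown because the stroke libraries of these 2 genes lay wholly above adult control and the windows hold no GENCODE exon. The starts in the RefSeq promoter table need not be the outermost ones: the Gfap window lies within the longer GENCODE gene, and the RefSeq gene of Cd44 reaches to 102901669, a few bases into its window. Both are read 5′ to 3′ on the minus strand from RefSeq promoter sequences of GRCm38.p6, Gfap at chr11:102897201-102897450 and Cd44 at chr2:102901666-102901915. Capitals would mark a motif match, and neither window has one.
Gfap: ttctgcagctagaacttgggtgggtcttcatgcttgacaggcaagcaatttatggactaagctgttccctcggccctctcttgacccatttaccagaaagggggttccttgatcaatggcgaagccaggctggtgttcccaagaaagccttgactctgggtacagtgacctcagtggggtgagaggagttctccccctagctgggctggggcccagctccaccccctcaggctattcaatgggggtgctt
Cd44: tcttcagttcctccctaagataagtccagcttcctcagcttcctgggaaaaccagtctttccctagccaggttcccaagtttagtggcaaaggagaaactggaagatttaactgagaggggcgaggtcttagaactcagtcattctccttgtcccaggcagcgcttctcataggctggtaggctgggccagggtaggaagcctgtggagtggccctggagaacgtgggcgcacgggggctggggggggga
The motifs searched on both strands were TTCNNNGAA for STAT factors and its stricter form TTCCNGGAA, TGANTCA for AP-1, a motif of 10 letters for NF-kappaB and TTGCNNAA for C/EBP. They were held by 7.02, 0.913, 6.75, 1.41 and 9.56% of 32851 promoter windows of the same length, in that order. Gfap, Cd44, Osmr and Timp1 had no match to any of them in this window. The Osmr window lies inside the GENCODE gene, with all 250 bases annotated as exon, so it is not upstream of the outermost start. The Vim and Lcn2 windows also lie inside their GENCODE genes, with 250 and 197 bases annotated as exon. The Steap4 window holds 98 exon bases and the downstream window of Cp 195. Steap4 had 3 sites: TTCCCGGAA, which fits both STAT motifs, 116 bases before the start, GGAAAACCCC for NF-kappaB 226 bases before it, and TTGCGAAA for C/EBP 87 bases before it. Vim had GGAAAGCCCC for NF-kappaB, Lcn2 had TTGCTCAA for C/EBP, and Cp, with 2 annotated starts, had TGATTCA for AP-1 before one and TTTTGCAA for C/EBP before the other. Of these 4 genes with a match, Vim passed the test in stroke and Cp in P4, in opposite directions.

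Osmr encodes the receptor subunit that pairs with gp130 to bind oncostatin M (chromosome 15, 6813577 to 6874969, minus strand, mm10). Its level was 0.634, 0.547 and 19.4 CPM in adult control, 1.45, 3.17 and 5.76 CPM in stroke, 7.30, 19.2 and 0.780 CPM in the siRNA-labelled libraries and 0.430, 0.277 and 1.01 CPM in P4. The stroke libraries were above adult control 1 and 2 and below adult control 3, so the groups overlapped. The log2 fold change in stroke against adult control was -0.97 (SE 1.29, adjusted p = 0.735, edgeR), and 1 library sets its sign. Without adult control 3 it was 2.54 (adjusted p = 0.475), and with the Rn45s level as a term it was 2.60 (adjusted p = 0.442), and the adjusted p ran from 0.442 to 0.888 over 11 alternatives. No direction can be given for Osmr in stroke from these libraries. In P4 its log2 fold change against adult control was -3.59 (SE 1.42, adjusted p = 0.103), and without adult control 3 it was -0.09.

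Steap4 encodes a metalloreductase that reduces iron and copper at the membrane (chromosome 5, 7960457 to 7982213, plus strand, mm10). Adult control 1, 2 and 3 held 51, 26 and 61 raw counts of it, stroke 4, 5 and 6 held 3, 9 and 0, siRNA-labelled 1, 2 and 3 held 11, 112 and 2, and P4 4, 5 and 6 held 0, 2 and 8. Its levels were 2.02, 0.646 and 6.96 CPM, then 0.104, 0.288 and 0 CPM, then 0.681, 6.48 and 0.0578 CPM, and then 0, 0.0396 and 0.507 CPM in the same order. All stroke libraries and all P4 libraries lay below all adult control libraries, and the siRNA-labelled libraries spanned nearly the whole range of the other groups. A count of 0 allows up to 0.163 CPM in stroke 6 and 0.0562 CPM in P4 4, at 3 counts per library and for counting error only. The log2 fold change in stroke against adult control was -4.52 (SE 2.02, adjusted p = 0.296, edgeR), the largest difference of the 8 in size and the one with the fewest counts behind it among the 5 whose libraries did not overlap. With the Rn45s level as a term it was -1.52 (adjusted p = 0.774), and over 11 alternatives the adjusted p ran from 0.0685 to 0.774.

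Cp encodes ceruloplasmin, the copper-carrying ferroxidase that astrocytes make in a secreted and a membrane-anchored form (chromosome 3, 19957054 to 20009145, plus strand, mm10). It was at 44.1, 53.0 and 100.03 CPM in adult control, 27.0, 24.0 and 29.7 CPM in stroke, 35.7, 77.1 and 28.6 CPM in the siRNA-labelled libraries and 3.54, 3.63 and 10.27 CPM in P4. Every stroke library lay below every adult control library, every P4 library below every stroke library, and the siRNA-labelled libraries overlapped both adult groups. Cp thus had its highest group mean in adult control, though siRNA-labelled 2 lay above adult control 1 and 2. It took 71.8% of the counts of the 8 genes in adult control, where Gfap, Vim and Cd44 were low, against 15.5% in stroke. Its log2 fold change in stroke against adult control was -1.29 (SE 0.53, adjusted p = 0.257, edgeR) and did not pass in any of 11 alternatives, with adjusted p from 0.107 to 0.645. Without adult control 3 it was -0.85, and with the Rn45s level as a term -0.55. Among libraries with over 1% Rn45s, adult control 2 was at 53.0 CPM and stroke at 24.0 to 29.7 CPM. Cp shares 108 exon bases, 1.13% of its exons, with Hps3 on the other strand.

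Timp1 encodes an inhibitor of matrix metalloproteinases (chromosome X, 20870166 to 20874735, plus strand, mm10). Adult control held 12, 23 and 0 counts of it (0.476, 0.571 and 0 CPM) and stroke held 15, 3 and 2 (0.518, 0.0961 and 0.109 CPM). The siRNA-labelled libraries held 29, 54 and 20 (1.79, 3.13 and 0.578 CPM) and P4 held 18, 19 and 7 (0.337, 0.377 and 0.444 CPM). All siRNA-labelled libraries lay above all other libraries, siRNA-labelled 3 (0.578 CPM) only just above adult control 2 (0.571 CPM), and the other 3 groups overlapped. The 0 of adult control 3, which was sequenced least deeply, allows up to 0.342 CPM. The gene lies inside an intron of Syn1, a gene of neuronal synapses on the other strand. The strand setting of the counting is not given in the sources used here, so reads from Syn1 introns cannot be told apart from Timp1 reads at so few counts.

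Lcn2 encodes lipocalin 2, a secreted protein that binds bacterial siderophores and is made by reactive astrocytes and neutrophils (chromosome 2, 32384633 to 32388252, minus strand, mm10). Adult control 1, 2 and 3 held 22, 0 and 1 counts of it, stroke 4, 5 and 6 held 0, 0 and 27, siRNA-labelled 1, 2 and 3 held 0, 29 and 37, and each P4 library held 1. The gene was seen in 1 or 2 libraries of each adult group at 0.872 to 1.68 CPM and was at 0 or 1 count in the others, so each adult group mean rests on those libraries. In stroke, all 27 counts came from stroke 6. At so few counts no difference between the adult groups was detectable: the log2 fold change in stroke against adult control was 0.53 (SE 2.17, adjusted p = 0.926, edgeR). The ratio of adult control to P4 was 12.3 on summed counts per depth, with an exact 95% interval of 3.73 to 64.2 that covers counting error only, and 22 of the 23 control counts came from adult control 1. Markers of monocytes and neutrophils, which also express Lcn2, took 0.000976% of counts at most as a group mean, in the siRNA-labelled group, and their part in the Lcn2 counts was not tested.

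**Figure D3:**
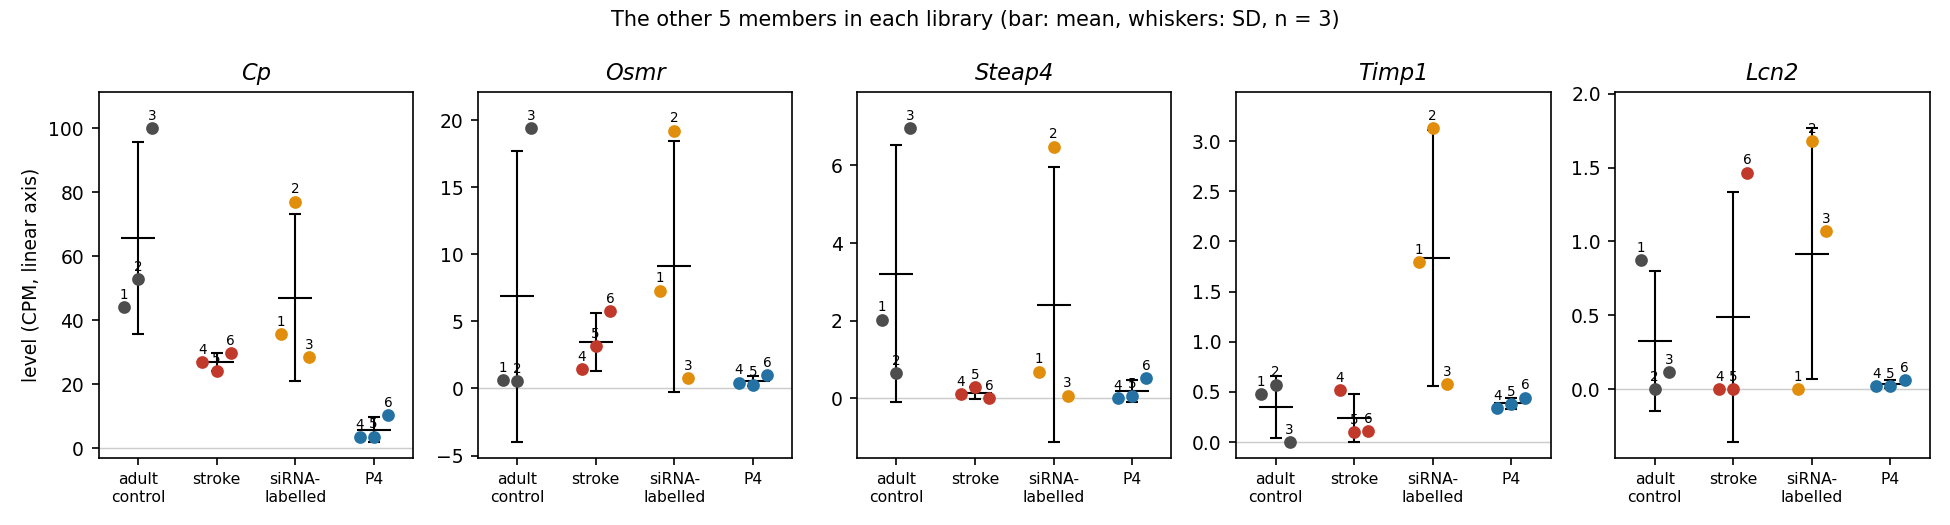
Level of Cp, Osmr, Steap4, Timp1 and Lcn2 in CPM on linear axes, each with its own scale, in each library of the 4 groups; points are libraries with their number, bars are means and whiskers are SD with n = 3, and whiskers below 0 show only that the SD exceeds the mean. Cp, Osmr and Steap4 have their highest value of adult control in adult control 3 and their highest value of the siRNA-labelled group in siRNA-labelled 2.

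Per base of exon, the order of the 8 genes changed with the group. In adult control, Cp had the highest level at 6.87 CPM per kb of annotated exon, followed by Vim at 1.75, Steap4 at 1.02 and Gfap at 1.00. In stroke, Vim was first at 14.6 CPM per kb, followed by Cd44 at 6.93, Gfap at 6.47 and Cp at 2.81. Vim was also first in the siRNA-labelled group at 19.2 and in P4 at 3.51 CPM per kb. The neighbouring Cd44 and Gfap in stroke, with SD of 0.184 and 2.86 over 3 libraries, did not differ beyond their spread, nor did Vim, Steap4 and Gfap in adult control, with SD of 1.52, 1.05 and 0.841. Lcn2 had the lowest level in adult control, the siRNA-labelled group and P4, and Steap4 in stroke.

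The siRNA-labelled group was compared with stroke to ask whether the genes differ with the GDF10 condition, as far as the labels give the aim. None of the 8 passed the edgeR test, against a background of 0.00558% of genes, which is 1 gene; at an unadjusted p under 0.05 none of the 8 and 1319 of all genes passed, and DESeq2 called 0 of the 8. Timp1 alone, 1 of 8, had libraries that did not overlap, against a background of 15.9%. The log2 fold change of Timp1 was 2.89 (SE 1.54, adjusted p = 0.710). Gfap was at 14.3 ± 3.43 CPM against 27.3 ± 12.1 CPM in stroke (SD, n = 3 each), which on the log2 scale is -0.94 (SE 0.64) with an adjusted p of 0.770. Vim differed by 0.40 (SE 0.61, adjusted p = 0.895) and Cd44 by -0.46 (SE 0.75, adjusted p = 0.905). The 3 genes that were higher in stroke than in adult control thus showed no difference from stroke larger than the spread between libraries. These p-values do not show that the groups are alike. Without siRNA-labelled 2, the library with the highest levels of Gfap, Vim and Cd44 in its group, Vim was at -0.43. Osmr, Steap4 and Cp had positive log2 fold changes of 1.40, 4.11 and 0.81 (adjusted p = 0.835, 0.678 and 0.761), and siRNA-labelled 2 held the highest value of each. The median log2 fold change of the 8 was 0.87 beside 0.04 over all genes.

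Within Rn45s classes, only siRNA-labelled 3 can be set against stroke. It was at 10.8 CPM for Gfap, 53.9 for Vim and 12.6 for Cd44, all below the lowest stroke library, at 14.03, 59.0 and 45.9 CPM. The siRNA-labelled libraries 1 and 2 have less Rn45s and no stroke library in their class. With the Rn45s level as a term in the edgeR fit, Gfap was at -1.25 (adjusted p = 0.707), Vim at 0.29 (0.969), Cd44 at -1.54 (0.570) and Osmr at -0.96 (0.915), and 0 of the 8 passed. The library numbers cannot be told apart from the groups here.

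Against adult control, the siRNA-labelled group had Gfap, Vim, Cd44 and Timp1 higher in every library, and none passed. These 4 of 8 compare with a background of 6.35% of genes wholly above adult control, and the edgeR test called 0 of the 8 against a background of 0.117%. Of 14 microglia and macrophage markers, 9 also lay wholly above adult control and 0 wholly below, with a median of 1.59 and 0 edgeR calls. These markers took 0.210 ± 0.0756% of counts against 0.0934 ± 0.0201% in adult control (SD, n = 3 each). Their part in the values of the 8 genes was not tested. At an unadjusted p under 0.05, 3 of the 8 and 1497 of all genes passed. DESeq2 called 2 of the 8, and it called more genes than edgeR over all genes. Vim differed by 3.44 on the log2 scale (SE 0.67, adjusted p = 0.0679), Cd44 by 2.89 (SE 0.81, adjusted p = 0.298), Timp1 by 2.32 (adjusted p = 0.739) and Gfap by 1.77 (SE 0.66, adjusted p = 0.462). Vim passed in 4 of 12 alternatives, with adjusted p from 2.95e-05 to 0.535. One of these was the fit without adult control 2, at 4.47 and an adjusted p of 0.0223 in edgeR. Among libraries under 1% Rn45s, Vim was at 49.3 to 171 CPM in the siRNA-labelled group and 3.65 to 4.68 CPM in adult control, and Cd44 at 27.3 to 62.8 CPM and 3.17 to 10.4 CPM. In the authors' deposited table, Vim is at 3.44 with a false discovery rate of 0.000307 and Cd44 at 2.89 with 0.0371, the only 2 of the 8 under 0.05 there, where 0.839% of all 23253 genes are. This comparison and that of stroke with adult control use the same control libraries, so the likeness of their values is not independent.

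In P4, Cp fell by 3.51 on the log2 scale from its adult control level (SE 0.57, adjusted p = 0.000572, edgeR). It went from 65.7 ± 30.1 CPM to 5.81 ± 3.86 CPM (SD, n = 3 each). Of the 8 genes, 1 passed, against a background of 16.8% of all genes, so a count of 1 of 8 is near the background. Gfap, Steap4 and Cp lay wholly below adult control, 3 of 8 against a background of 16% of genes wholly below. Cp passed in all 11 alternatives, with log2 fold changes from -4.36 to -3.08. The authors' deposited table gives -3.50 with a false discovery rate of 2.36e-07. The others did not pass: Gfap was at -1.70 (SE 0.66, adjusted p = 0.0965) and Steap4 at -4.23 (SE 2.01, adjusted p = 0.176), while Vim at 0.99 and Cd44 at 1.11 were on the other side (adjusted p = 0.320 and 0.375). Gfap passed with the Rn45s level as a term (adjusted p = 0.0357) and in DESeq2 (0.0338), with a range of 0.0338 to 0.412 over 11 alternatives. Steap4 passed with the Rn45s level as a term alone (-7.35, adjusted p = 0.0105, range 0.0105 to 0.406). Osmr passed in the same pair of settings as Gfap and is at -3.56 with a false discovery rate of 0.0396 in the authors' deposited table. Without adult control 3, Cd44 was at 2.40 (adjusted p = 0.0325, edgeR, range 0.0325 to 0.599), and without adult control 2, Vim was at 2.01 (adjusted p = 0.0380, range 0.0380 to 0.655).

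**Figure D4:**
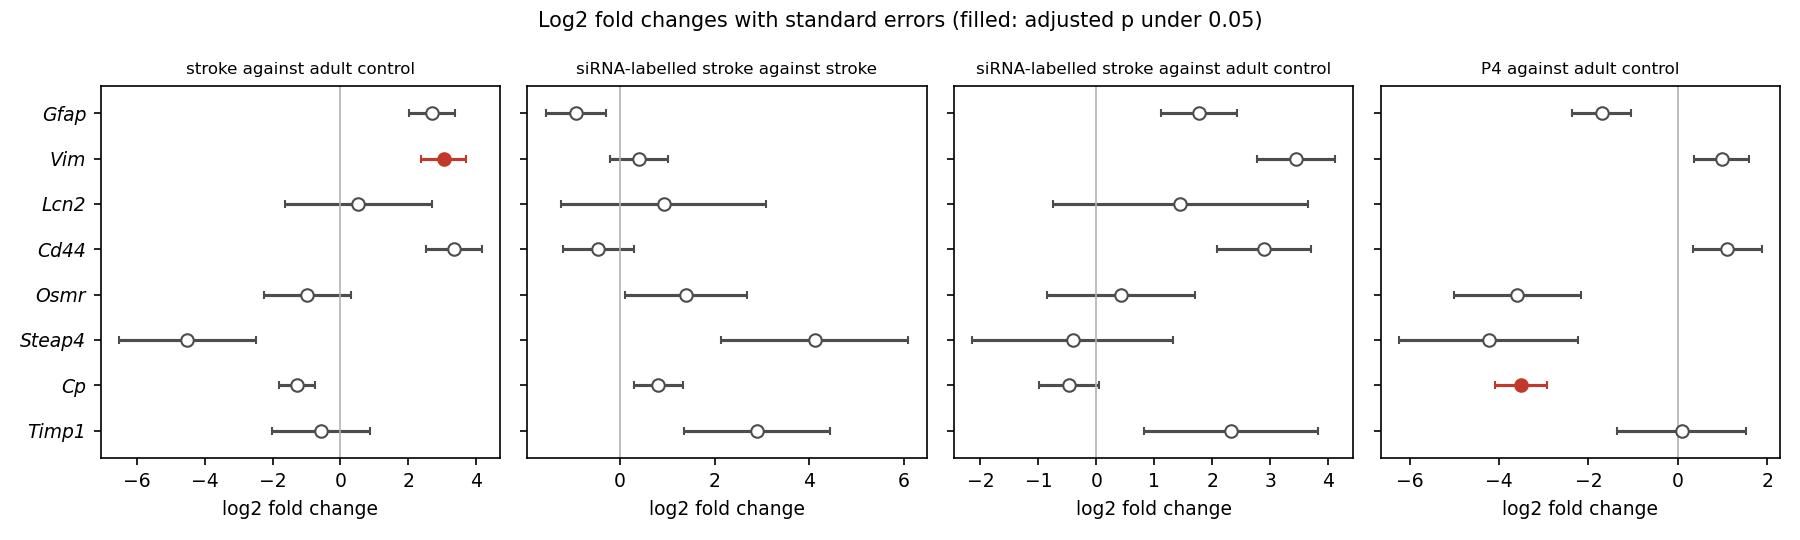
Log2 fold changes of the 8 genes in the 4 comparisons, with points at the edgeR estimate and bars of 1 standard error; filled points have an adjusted p under 0.05, the axes differ between panels, and Lcn2 is left out of the P4 panel because P4 holds 3 counts of it. Vim in stroke, at 3.04, and Cp in P4, at -3.51, are the filled points.

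Astrocyte markers were lower in P4 as well: 11 of 14 fell and 0 rose, with a median log2 fold change of -2.96 beside -0.16 over all genes. Over all 17909 genes tested, 1869 were called lower and 1132 higher in P4, together 16.8%. Of 8 genes of radial glia and immature astrocytes, Fabp7 and Tnc rose in P4 and Sox2 and Slc1a3 fell. Oligodendrocyte markers fell in 12 of 12 cases, with a median of -8.66, and 5 of 12 pan-neuronal markers rose. The low Cp of P4 thus comes with low levels of most astrocyte and oligodendrocyte markers, and the part of these in it was not tested.

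Of 4 other tested genes listed for reactive astrocytes, Serpina3n and Cxcl10 rose in stroke, where 0.704% of all genes were called. Serpina3n, a secreted protease inhibitor, rose from 15.5 ± 10.6 CPM in adult control to 2882 ± 578 CPM in stroke (SD, n = 3 each), a log2 fold change of 7.53 (adjusted p = 9.73e-05, edgeR). Cxcl10, an interferon-induced chemokine, rose by 4.91 (adjusted p = 0.0379). The others did not pass, with S1pr3 at 0.17 and Hspb1 at -2.68, and the median of the list was 2.54, beside -0.08 over all genes. Both also rose in the siRNA-labelled group against adult control, by 5.08 and 5.95. Serpina3n was at 528 ± 193 CPM there, below all stroke libraries, a log2 fold change of -2.45 that did not pass (adjusted p = 0.379). Reads of the Serpina3 family, a group of near-identical genes, may be shared between its members. Oligodendrocyte markers took 5.98% of stroke counts and astrocyte markers 0.300%, and which cells held the RNA of Serpina3n and Cxcl10 was not tested.

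Lists named for 2 kinds of reactive astrocyte held 1 edgeR call in stroke, where 0.704% of all genes were called, and no test compared the lists. Of all 17909 genes, 2852 had an unadjusted p under 0.05 in stroke against adult control. In the siRNA-labelled group against stroke 1319 did, and DESeq2 called more genes than edgeR in both comparisons. Of 11 tested genes of the neuroinflammation type (A1), 1 rose in stroke, the class I histocompatibility gene H2-D1, by 3.38 (adjusted p = 0.0114), and 0 fell, with a median of 2.26. H2-T23, of the same family, was at 2.81 (adjusted p = 0.154). Of 10 tested genes of the ischemia type (A2), 0 passed in edgeR or DESeq2, 1 had an unadjusted p under 0.05, and the median was -0.30, with Cd109 at -3.26 and Tgm1 at 2.27. The SD exceeded the mean for Cd109 in adult control (16.7 ± 26.4 CPM) and Tgm1 in stroke (3.23 ± 5.53 CPM, SD, n = 3 each). In the siRNA-labelled group against stroke no gene of either list passed in edgeR (5 had an unadjusted p under 0.05, and DESeq2 called 2), with Cd14, a lipopolysaccharide receptor subunit of microglia and macrophages, at 2.79 (adjusted p = 0.445) and Emp1 at 4.09. The microglia and macrophage markers had a higher share of counts there, 0.164 to 0.297% against 0.0380 to 0.124% in stroke, and their part in these values was not tested. Microglia markers were not at 0 in any of these 6 libraries. In P4 against adult control, 3 of the 11 A1 genes fell, H2-T23, Ggta1 and Iigp1. Of the 10 A2 genes, B3gnt5 rose and Cd14 fell, and 16.8% of all genes were called in that comparison.

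Genes of gp130 signalling, the pathway of Osmr, did not pass in stroke. Of 15 tested genes, 0 passed in edgeR, 4 had an unadjusted p under 0.05 and 1 passed in DESeq2, and the median was 0.19. Over all 17909 genes tested, 126 passed in edgeR and 2852 had an unadjusted p under 0.05, and DESeq2 called many more genes than edgeR. The transcription factor gene Stat3 was at 39.5 ± 31.5 CPM in controls and 186 ± 5.61 CPM after stroke, and its feedback inhibitor Socs3 at 8.96 ± 11.8 and 142 ± 39.0 CPM (SD, n = 3 each). Their log2 fold changes were 2.23 (adjusted p = 0.0750) and 3.96 (adjusted p = 0.0701, both edgeR), and neither overlapped between the groups. Il6st, which encodes gp130, was at 0.19. In the siRNA-labelled group against adult control, the ligand gene Osm was at 3.77 ± 1.72 CPM against 0.174 ± 0.203 CPM, a log2 fold change of 4.32 (adjusted p = 0.413). In P4 against adult control, 1 of the 15 rose, Jak1, and 4 fell, Il6st, Il6ra, Lifr and Stat3, beside 16.8% of all genes called.

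The lists around the other members held 1 edgeR call in stroke, where 0.704% of all genes were called. Over all 17909 genes tested, 2852 had an unadjusted p under 0.05 there, and DESeq2 called many more genes than edgeR. Spp1, which encodes osteopontin, a CD44 ligand, rose in stroke by 4.12 (adjusted p = 0.0287) and in the siRNA-labelled group against adult control by 5.86, the 1 call among 11 hyaluronan and CD44 partner genes in each. Ezr, which links CD44 to actin, was at -2.25 in stroke (adjusted p = 0.124). Of 14 iron and copper genes 0 passed in stroke in edgeR, 6 had an unadjusted p under 0.05 and DESeq2 called 2, with a median of 0.38; the heme oxygenase gene Hmox1 was at 2.46 (adjusted p = 0.118) and the transferrin gene Trf at 2.02 (adjusted p = 0.157). Of 14 metalloproteinases and inhibitors 0 passed in edgeR, 2 had an unadjusted p under 0.05 and DESeq2 called 1, with Adamts4 at 1.50 and Timp2 at 0.76. Of 3 other filament genes 0 passed in edgeR or DESeq2 and 0 had an unadjusted p under 0.05, with Lmna at 0.95 and Nes at -0.71. In P4 against adult control, 5 of the 11 hyaluronan and CD44 partner genes passed, 4 of the 14 metalloproteinases and inhibitors, 3 of the 14 iron and copper genes and 0 of the 3 filament genes, beside 16.8% over all genes. No filament gene passed in DESeq2 or had an unadjusted p under 0.05. Has3 and Timp2 rose, and Tnfaip6, Hyal1, Msn, Rdx, Adamts1, Adamts4, Timp3, Fth1, Trf and Atp7a fell. No gene of these 4 lists passed in the siRNA-labelled group against stroke in edgeR or DESeq2, and 1 had an unadjusted p under 0.05.

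Over the 12 libraries, the 8 genes did not follow 1 pattern. On log2 CPM, Pearson's r was 0.718 for Vim with Cd44 and for Gfap with Cd44, 0.691 for Gfap with Vim, and 0.724 for Steap4 with Cp. Osmr had an r of 0.683 with Cp, 0.677 with Gfap, 0.592 with Steap4 and 0.588 with Cd44. Timp1 and Lcn2 reached at most 0.451 (with Vim) and 0.385 (with Cp). The r was -0.19 for Vim with Steap4 and 0.06 for Cd44 with Cp. These are descriptions over libraries that share groups, depth and Rn45s share. Among 11919 genes that reached a group mean of 5 CPM or more, those most like each member were Man1c1 for Gfap (r = 0.954), Folr2 for Vim (0.924), Aspm for Cd44 (0.907), Serpine3 for Osmr (0.955), Nr1h3 for Steap4 (0.919), Arsk for Cp (0.980), Daam1 for Timp1 (0.951) and Slc15a3 for Lcn2 (0.788). No gene was among the 3 most like for more than 1 member.

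**Figure D5:**
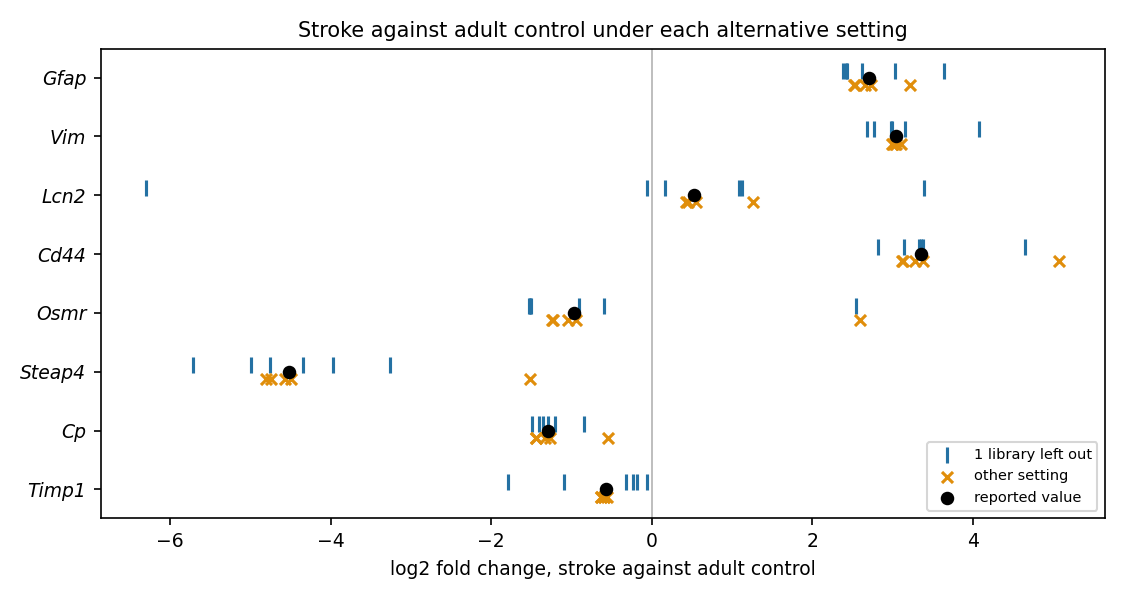
Log2 fold change in stroke against adult control for each of the 8 genes under each alternative; black points are the reported values, blue ticks leave out 1 library and orange crosses are other settings. Gfap, Vim and Cd44 stay above 2 and Cp, Steap4 and Timp1 below 0 under every setting drawn, while Osmr and Lcn2 lie on both sides of 0. The value of -6.29 for Lcn2 is the fit without stroke 6, which leaves 0 counts in stroke.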

How the data were processed

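Per the submitters' processing notes, reads were processed with CASAVA 1.8.2 and edgeR on the mouse build mm10. Per the labels' protocols, RNA came from a microprep kit, amplification used the Ovation RNA-seq System v2, and sequencing gave paired reads of 69 bp. Aligner, counter, gene models and strandedness of the counting are not given in the sources. Deposited raw counts per gene were analysed. From the same table, the authors' deposited log2 fold changes and false discovery rates, adjusted p-values of their own test, were read for the 8 genes, and 30 further columns of per-library values were not used.

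Low genes were removed with filterByExpr, libraries were scaled with TMM, and all 12 libraries were fitted together, each group with its own mean, by the quasi-likelihood test of edgeR 4.0.16 in R 4.3.3. Calls use a Benjamini-Hochberg adjusted p under 0.05 over 17909 genes. The SE was computed as the log2 fold change over the root of F. Levels are CPM with TMM factors, and log2 CPM used a prior count of 2. Positions and exon lengths are from GENCODE vM21. The test was also run on simulated counts that lack the Rn45s differences between these libraries, and no result here rests on that run. Alternatives were RLE factors, no filter, the Rn45s level as a term, DESeq2 1.42.0, fits of 2 groups, the replicate block and leaving out each library. Intervals and the limit of 3 counts for a 0 cover counting error only, since amplified reads are not independent molecules.

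The members, lists, motifs and naming rule were chosen with earlier results of these data known. Members are named throughout. From each list, called genes and up to 2 genes with the smallest p per comparison may be named. Il6st, S100b, Aqp4, S1pr3 and Hspb1 in the stroke comparison were named after their values were seen. For likeness, the rule takes the 3 genes of highest Pearson r per member, and the text names the first.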

Additional observations from a re-analysis of the deposited data

How the results depend on the processing

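Of the log2 fold changes of the 8 genes under the alternatives, 317 kept their direction and their side of the threshold, 19 passed only under the alternative, 7 no longer passed, all of them Vim in stroke, and 14 changed sign. The cause of these changes was not tested. With RLE factors, which move the median of all genes in stroke against adult control from -0.08 to -0.19, 0 of the 8 passed there, and the genes called in the siRNA-labelled group were 0 against stroke and 13 against adult control, in place of 1 and 21. Without the filter, 2 of the 8 and 158 of all genes passed in stroke against adult control and 1 of the 8 in the siRNA-labelled group against adult control, and 2 and 40 genes were called in the siRNA-labelled group against stroke and against adult control. With the Rn45s level as a term, 2 of the 8 passed in stroke, 2 in the siRNA-labelled group against adult control and 4 in P4, with 208, 95 and 5484 genes called, in place of 126, 21 and 3001, and 4 genes against stroke; Osmr changed to 2.60 in stroke and to -0.96 in the siRNA-labelled group against stroke. DESeq2 called 1293 genes in stroke, 875 of them lower, where edgeR called 39 lower of 126; it called 161 in the siRNA-labelled group against stroke, 333 against adult control and 4540 in P4, with 3, 0, 2 and 3 of the 8. With only 2 groups in the fit, 43, 88, 0 and 1639 genes passed in the same order, with 0 of the 8 in stroke; the filter then removed Lcn2 in stroke and P4 against adult control and Steap4 in the siRNA-labelled group against stroke.

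Leaving out 1 library at a time gave 31 to 548 genes called in stroke, the highest without adult control 2, 0 to 0 in the siRNA-labelled group against stroke, 5 to 25 against adult control and 1852 to 3099 in P4, and 0 to 2, 0 to 0, 0 to 1 and 1 to 2 of the 8. Osmr ran from -0.74 to 3.93 in the siRNA-labelled group against adult control, lowest without siRNA-labelled 2 (-0.11 without adult control 1, -0.12 without adult control 2), and from -1.53 to 2.54 in stroke, highest without adult control 3. Lcn2 in stroke ran from -6.29 without stroke 6, which leaves 0 counts, so that value depends on the prior count, to 3.38 (-0.06 without adult control 2). Steap4 in the siRNA-labelled group against adult control ran from -3.12 to 0.85, highest without adult control 3 (0.04 without siRNA-labelled 1, 0.17 without siRNA-labelled 3). Timp1 in P4 ran from -0.44 without adult control 3 to 0.60 (-0.01 without P4 6), and Vim in the siRNA-labelled group against stroke from -0.43 without siRNA-labelled 2 to 0.69.

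Adult control and siRNA-labelled libraries share the numbers 1 to 3, but same-numbered libraries did not deviate together (r = 0.06, -0.19 and -0.34), and adult control 2 was closest to siRNA-labelled 3 (r = 0.481). A fit with the replicate number as a block called 0 genes and 0 of the 8, as did the fit of these 2 groups without it. The other groups compared share no number. At 10517638 counts in adult control 3, a count of 0 allows 0.342 CPM, which limits what can be said of Timp1 there.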
